A study of Homo sapiens with 6 samples.

Results

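The genes described here encode 10 secreted proteins that act on blood vessels or the matrix around cells: EDN1, ADM, ANGPTL4, VEGFA, PDGFA, PDGFB, CCN1, CCN2, THBS1 and SEMA3C. They are 10 of the 19775 genes that the array measured. The genes were picked by name with earlier results of these data known, and each is read from the probe set, of those annotated to that gene alone, that was brightest on average over the 6 arrays. That choice used the mean over all 6 arrays, the 24 h ones included, so it could favour a probe set with a larger rise. The SEMA3C probe set used, for example, was dimmer than the other in siControl at 0 h (11.3 against 13.5). The pick by name also makes counts over the 10 genes a description and not evidence about such genes at large.

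HepG2, a human hepatoblastoma line that keeps many hepatocyte functions, carried one of a pair of siRNAs. One was a control, siControl, and the other, siHNF4a, was directed at HNF4A, a nuclear receptor on which many liver genes depend. Cells of either kind then received TGF-beta, at 3 ng/ml over 1.5 h or 24 h, or none (0 h). Each of the 6 combinations is 1 array with no replicate. The cells were of 1 line, each siRNA carries 1 label, and since the HNF4A signal was not analysed here, the labels were taken as given. Every array at 1.5 or 24 h had received TGF-beta, and differences from 0 h cannot be told apart from time in culture. Hepatocyte markers were high throughout. ALB, for serum albumin, lay between signals of 8099 and 9727, and 10 of 10 hepatocyte markers were among the genes tested.

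TGF-beta binds a pair of receptor kinases that phosphorylate Smad proteins, which enter the nucleus with Smad4 and switch on genes together with partners such as AP-1. In the liver it drives matrix production, and many of its targets are themselves secreted signals. Endothelin-1 and adrenomedullin are small peptides that narrow and widen vessels, VEGF-A and the PDGF chains drive growth of endothelial and mural cells, and the CCN proteins and thrombospondin-1 are matricellular, meaning that they sit in the matrix and steer cells without forming fibres. Thrombospondin-1 can also release TGF-beta from its latent complex. SEMA3C is a guidance ligand for neuropilin and plexin receptors, and ANGPTL4 blocks lipoprotein lipase.

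Values are MAS5 signals, intensities deposited on a scale where the trimmed mean of every array was 100. A signal under 12.9, the median of all signals, was set to that floor before log2 was taken. Probe sets differ in brightness, so signals are compared between arrays and not between genes. All 10 genes were among the 11921 tested, which needed a mean signal above the floor, and 8 lay above it on every array. ANGPTL4 did so on 3 arrays and entered mainly through its 24 h signals, and SEMA3C did on 5. A control probe set for 18S ribosomal RNA set the siControl 0 h array apart (8600 there, 69.8 to 736.5 elsewhere), and calls that change without it are given both ways. Where a floored value enters a fitted difference, that difference depends on the floor and is no bound. Among the 10 genes this holds for ANGPTL4 and SEMA3C, and among others named below for PMEPA1, ROBO4 and COMP. NRP2 was floored on the siHNF4a 1.5 h array (7.7), which enters the SE of its 24 h difference and not the difference. In a bulk RNA sample, more cells expressing a gene and more RNA per cell cannot be told apart.

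**Figure D1:**
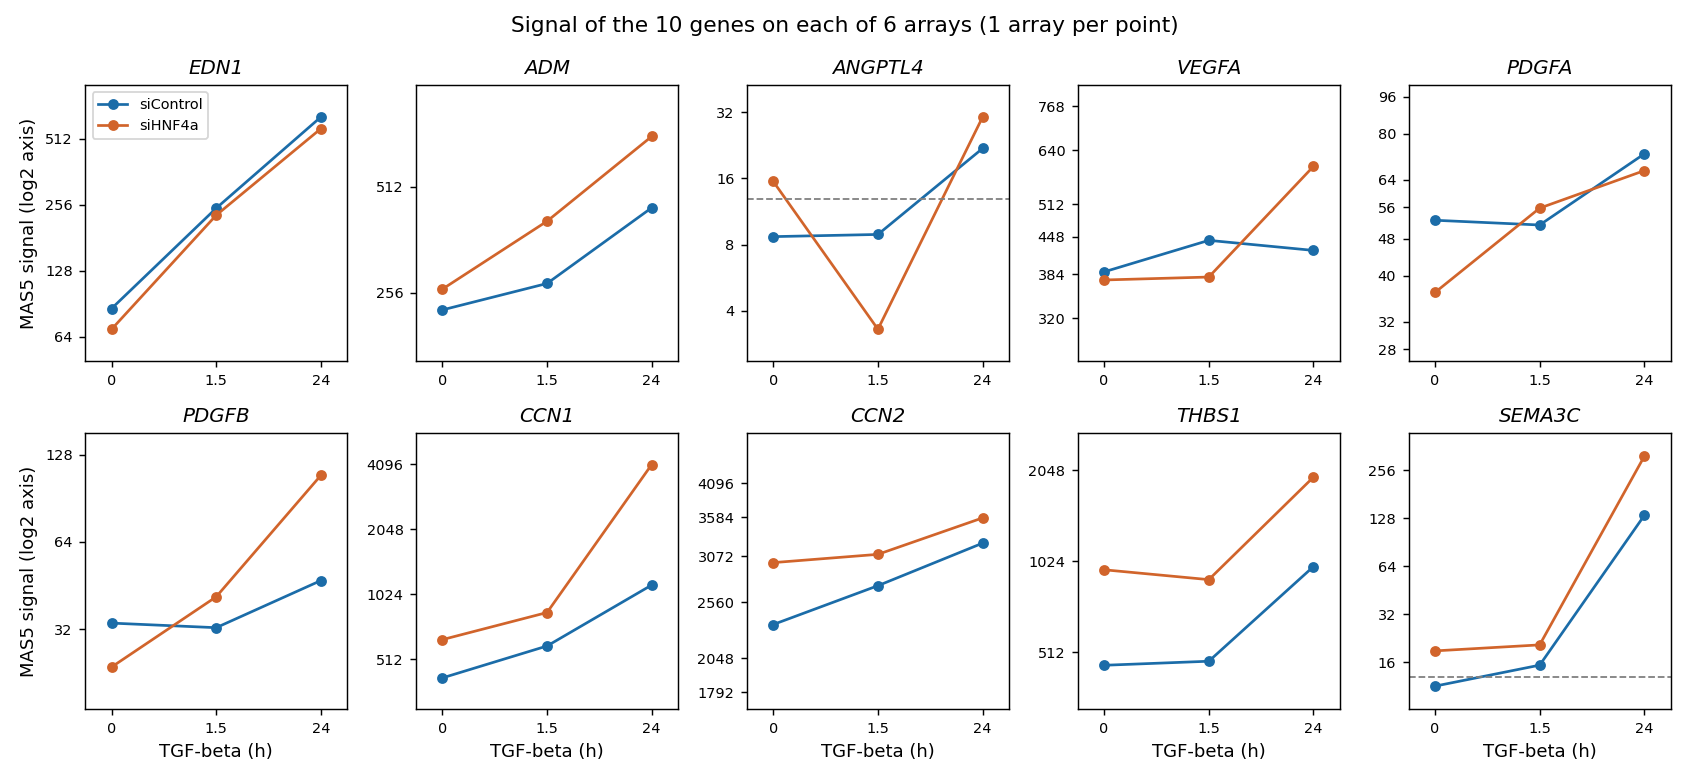
MAS5 signal (log2 axis) of each gene against hours of TGF-beta, with 1 point per array, siControl in blue and siHNF4a in orange; the dashed line is the floor of 12.9. In 9 of 10 panels both 24 h points lie above the 4 earlier ones, VEGFA being the exception, against 15.7% of all genes tested. ANGPTL4, 1 of the 9, entered the tests mainly through its 24 h signals. ADM, CCN1, CCN2, THBS1 and SEMA3C run higher in siHNF4a at each time, against 17.5% of all genes tested.

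Endothelin-1, the vessel-narrowing peptide, had the only early response among the 10 genes that passed the test. The EDN1 signal in siControl was 85.9 before TGF-beta (0 h), 246.4 after 1.5 h and 641.8 after 24 h, and in siHNF4a 69.1, 228.9 and 567.8. Each later array was the higher in both arms, and the arms lay close together at every time. The log2 difference was 1.52 in siControl and 1.73 in siHNF4a at 1.5 h, and 2.90 and 3.04 at 24 h, that is 7.47-fold and 8.22-fold. In the limma fit over all genes, with siRNA and time as terms, EDN1 rose by 1.62 ± 0.17 (SE) at 1.5 h (adjusted p = 0.00034) and by a further 1.35 ± 0.17 from 1.5 to 24 h (adjusted p = 0.00014). The siRNA difference was -0.20 ± 0.14 and did not pass (limma adjusted p = 0.468). Of all genes tested 0.0839%, or 10, rose at 1.5 h and 0.0168% fell. The 1.5 h call was lost when its probe sets were averaged (1.17), when limma's intensity trend was dropped, and when dim genes were kept, settings in which limma called no gene at 1.5 h (357, 487 and 571, in that order, had an unadjusted p under 0.05).

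The promoter of EDN1 is shown because the gene moved at both steps, in the window from 250 bases before to 50 after a RefSeq start site. RefSeq lists 3 start sites for the gene in GRCh38.p14; the window printed is chr6:12290111-12290410, plus strand, 5′ to 3′, with motif matches in capitals.
EDN1: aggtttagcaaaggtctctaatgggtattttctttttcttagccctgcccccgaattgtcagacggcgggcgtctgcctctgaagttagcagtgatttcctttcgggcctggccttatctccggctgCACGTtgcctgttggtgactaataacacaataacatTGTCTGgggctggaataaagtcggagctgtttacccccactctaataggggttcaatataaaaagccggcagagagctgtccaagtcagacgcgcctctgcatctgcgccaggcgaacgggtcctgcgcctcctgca
The capitals mark CACGT, the reverse of ACGTG, at -123, and TGTCTG, the reverse of the Smad-type motif CAGACA, at -87, counted from the start site at 0. CAGACA on either strand stands in 16.9% of all 34943 RefSeq windows of this length, and ACGTG, a core of hypoxia factor sites, in 21.4%. Of the 10 genes 7 had a window in the table, 13 windows in all, and EDN1 alone of the 7 held CAGACA. None of the 13 held TGANTCA, the AP-1 motif found in 7.72% of all windows, or CAAAGTCCA, an HNF4A motif found in 0.383%. A match describes letters and not a bound site.

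Adrenomedullin, the vessel-widening peptide, rose by 24 h and was higher in siHNF4a. The ADM signal was 229.0, 272.2 and 446.5 in siControl at 0, 1.5 and 24 h, and 262.3, 408.9 and 711.6 in siHNF4a. Each siHNF4a array lay above the siControl array of the same time, and each later array was the higher in both arms. The 24 h difference over the arms was 1.20 ± 0.16 (limma adjusted p = 0.00021), of which 0.44 ± 0.16 was present at 1.5 h without passing, and 0.76 ± 0.16 came between 1.5 and 24 h (adjusted p = 0.00656). The siRNA difference was 0.49 ± 0.13 (limma adjusted p = 0.038), from 0.20 at 0 h to 0.59 at 1.5 h and 0.67 at 24 h. Dropping the 1.5 h pair (0.43, limma adjusted p = 0.14) or the 24 h pair (0.39, limma adjusted p = 0.369) ended the call. The ADM window, chr11:10304823-10305122 on the plus strand, is shown for comparison with EDN1.
ADM: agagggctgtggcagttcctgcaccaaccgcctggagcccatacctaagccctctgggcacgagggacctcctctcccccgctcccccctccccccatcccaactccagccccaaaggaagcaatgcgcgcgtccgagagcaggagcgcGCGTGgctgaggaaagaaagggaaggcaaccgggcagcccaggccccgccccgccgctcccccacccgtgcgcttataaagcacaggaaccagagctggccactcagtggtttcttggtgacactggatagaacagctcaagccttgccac
The capitals mark a match to GCGTG at -101, the other hypoxia factor core, which 36.5% of all windows hold. Windows of EDN1, PDGFA and THBS1 hold it too, though not the EDN1 window printed above and not every PDGFA window.

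CCN1, also called CYR61, a matricellular protein that binds integrins, had a larger 24 h response in siHNF4a than in siControl. Its signal was 419.8, 590.2 and 1130.9 in siControl and 631.6, 843.5 and 4091.7 in siHNF4a. The siHNF4a 24 h array stood far above the other 5, and the siHNF4a array was the higher at every time. The 24 h response was 2.69-fold in siControl and 6.48-fold in siHNF4a from 0 h, and 1.92-fold and 4.85-fold from 1.5 h, which leaves out both 0 h arrays. On the log2 scale the arms differed by 1.27 and 1.34 in these comparisons, and 2.94% and 4.64% of all genes tested differed by at least 2-fold in that direction. Over both arms CCN1 rose by 2.06 ± 0.23 at 24 h (limma adjusted p = 4.3e-05). At 1.5 h it was 0.45 ± 0.23 higher, which did not pass, though it did without the siControl 0 h array (0.75, limma adjusted p = 0.0325).

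CCN1 was higher in siHNF4a by 0.59 at 0 h, by 0.52 at 1.5 h and by 1.86 at 24 h, with a fitted mean siRNA difference of 0.99 ± 0.19 (limma adjusted p = 0.0048). Without the 24 h pair it was 0.55 and did not pass (limma adjusted p = 0.0982). A fit with a term for the siRNA difference at 24 h against the mean of the earlier times gave 1.30 ± 0.22. Its unadjusted p was 0.00022 and its limma adjusted p 0.437, so the change in siRNA effect did not pass over all genes. No gene passed on that term (541 had an unadjusted p under 0.05), but 13 higher and 11 lower did with log2(signal + floor), CCN1 among them (1.30, limma adjusted p = 0.0084). With the floor at the 40th percentile 1 higher and 3 lower passed, and without the filter on dim genes 345 and 294, none of the 10 genes among them. The other probe set of CCN1 had the same shape, with 199.2, 227.3 and 588.5 in siControl and 292.8, 421.5 and 2412.5 in siHNF4a.

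CCN2, also called CTGF and known as a TGF-beta target in many cells, had the smallest 24 h difference of the 7 genes that passed. Its signal was 2342.6, 2732.1 and 3233.4 in siControl and 2993.5, 3093.2 and 3573.6 in siHNF4a. The probe set was bright before any TGF-beta, the arms were in the same order at each time, and the siHNF4a 0 h array lay above the siControl 1.5 h array. The 24 h difference was 0.36 ± 0.10, a factor of 1.28 (limma adjusted p = 0.0291). It did not pass after quantile normalization (0.26), after scaling to the median (0.36), with the mean of probe sets (0.36), without the intensity trend (0.36) or without the siControl 0 h array (0.26). No other probe set was annotated to CCN2 alone, so the mean left its own values as they were and changed only the fit over all genes. The siRNA difference of 0.23 ± 0.08 did not pass (limma adjusted p = 0.125). The relatives CCN3, CCN4, CCN5 and CCN6 were on the array and none had a mean signal above the floor.

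The CCN2 window is shown because it holds 1 motif at 3 places. It is chr6:131951323-131951622, minus strand, 5′ to 3′, and its capitals mark GGAATG, a motif that TEAD factors, the DNA-binding partners of YAP, recognise.
CCN2: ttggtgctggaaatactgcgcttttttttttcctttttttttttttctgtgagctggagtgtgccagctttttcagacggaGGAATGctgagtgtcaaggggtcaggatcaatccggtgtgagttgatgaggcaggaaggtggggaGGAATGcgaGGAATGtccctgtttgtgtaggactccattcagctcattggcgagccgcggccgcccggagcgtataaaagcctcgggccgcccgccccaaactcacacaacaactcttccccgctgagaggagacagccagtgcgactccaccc
GGAATG occurs 3 times there, at -169, -104 and -95, while 14.0% of all windows hold it at least once on either strand. The windows of THBS1 and of the EDN1 start in the middle of the 3 hold it 1 time each. Of the other YAP and TEAD targets 9 were tested, and 1 rose at 24 h, against 7.22% of all genes. This was ANKRD1, a nuclear muscle-type ankyrin protein, at 1.23 ± 0.30, which was also higher with siHNF4a (0.92 ± 0.25).

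THBS1, the gene of thrombospondin-1, had nearly the same siRNA difference at each of the 3 times. Its signal was 463.5, 478.0 and 983.4 in siControl and 959.5, 890.1 and 1943.6 in siHNF4a. The untreated siHNF4a array was as bright as the siControl array after 24 h of TGF-beta, and the 0 and 1.5 h arrays of each arm lay close together. The arms were 1.05 apart at 0 h, 0.90 at 1.5 h and 0.98 at 24 h, siHNF4a being the higher, with a fitted mean siRNA difference of 0.98 ± 0.10, or 1.97-fold (limma adjusted p = 3.7e-05). It passed without the 0 h, 1.5 h or 24 h pair in turn (0.94, 1.02 and 0.97). The 24 h difference was 1.09 in siControl and 1.02 in siHNF4a, with a fitted mean of 1.05 ± 0.13 (limma adjusted p = 6.9e-05), and the term for a changed siRNA effect at 24 h was 0.01 ± 0.23, a value near 0 whose sign turned under quantile (-0.05) and median scaling (-0.01) and with the mean of probe sets (-0.25). The early difference was -0.03 ± 0.13.

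THBS1 has 7 probe sets, and they differ in the size of both differences and, among the dim ones, in direction. Dim probe sets with highest signals of 39.1 and 20.3 had siRNA differences of -1.24 and -0.65 at 24 h, the latter with a floored signal. In a further dim one the 24 h difference in siControl was -0.06. The brightest alternatives had 520.1, 475.8 and 960.7 in siControl with 742.7, 754.5 and 1091.3 in siHNF4a, and 301.7, 314.6 and 567.5 with 581.1, 539.1 and 1000.4. In the first of these the siRNA difference at 24 h was 0.18, against 0.98 in the probe set used. With the mean of the 7 the siRNA difference was 0.50 and did not pass (limma adjusted p = 0.0987). With probe sets ending in _x_at or _s_at left out, the brightest of the 3 that remained was dim (20.5 to 60.5). Its siRNA difference of 1.05 passed, and its 24 h difference of 0.21 did not. The THBS1 window, chr15:39580829-39581128 on the plus strand, has its GGAATG at -46 and a GCGTG at -227.
THBS1: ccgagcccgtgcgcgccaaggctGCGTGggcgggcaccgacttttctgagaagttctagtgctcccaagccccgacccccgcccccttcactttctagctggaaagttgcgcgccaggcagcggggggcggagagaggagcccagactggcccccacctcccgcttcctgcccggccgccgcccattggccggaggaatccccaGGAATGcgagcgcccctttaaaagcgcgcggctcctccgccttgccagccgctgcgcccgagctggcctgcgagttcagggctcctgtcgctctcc

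SEMA3C went from near the floor to a clear signal between 1.5 and 24 h. Its signal was 11.3, 15.3 and 133.0 in siControl and 18.8, 20.5 and 312.3 in siHNF4a. The 4 early arrays lay at or just above the floor, and both 24 h arrays lay well above it, the siHNF4a array the higher. The step from 1.5 to 24 h, which needs no floored value, was 8.69-fold in siControl and 15.2-fold in siHNF4a, and its fitted mean was 3.52 ± 0.30 (limma adjusted p = 6.5e-06). At 1.5 h the fitted difference was 0.19 ± 0.30 and did not pass. The siRNA difference at 24 h was 1.23 between single arrays, and the fitted one over the 3 times, 0.73 ± 0.25, did not pass (limma adjusted p = 0.0899). The other probe set, 13.5, 15.7 and 39.0 in siControl and 16.3, 7.1 and 49.5 in siHNF4a, was higher at 24 h in both arms by less, at 1.53 and 1.60.

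Of the SEMA3C receptors, neuropilin-1 (NRP1), which also binds VEGF-A, rose at 24 h too. NRP1 had 89.1, 108.9 and 244.0 in siControl and 198.9, 215.9 and 367.8 in siHNF4a. It rose by 1.17 ± 0.20 at 24 h and was 0.91 ± 0.16 higher with siHNF4a, and the siHNF4a array was the higher at each time. Neuropilin-2 (NRP2) rose at 24 h by 1.32 ± 0.37, whereas the plexin gene PLXND1 was 0.54 ± 0.18 higher and did not pass (limma adjusted p = 0.064). Of 16 semaphorins and plexins tested 2 rose at 24 h, SEMA3G (1.70 ± 0.24) and SEMA7A (1.15 ± 0.28), against 7.22% of all genes. With siHNF4a 1 was higher, SEMA6A (0.72 ± 0.17), against 3.9%.

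Of the PDGF chains, growth factors for mesenchymal and mural cells, PDGFB rose at 24 h and PDGFA did not pass. PDGFB had 33.6, 32.4 and 47.1 in siControl and 23.7, 41.4 and 108.6 in siHNF4a. The siHNF4a 24 h array stood above the other 5, and the arms crossed between 0 and 1.5 h. Its 24 h difference was 0.49 in siControl and 2.20 in siHNF4a, or 0.54 and 1.39 from 1.5 h. The fitted 24 h rise was 1.34 ± 0.35 (limma adjusted p = 0.0191). It did not pass with the mean of probe sets (0.83) or without the intensity trend, and was 1.98 without the siControl 0 h array. The step from 1.5 to 24 h, 0.97 ± 0.35, did not pass (limma adjusted p = 0.0896) but did without that array (limma adjusted p = 0.0252). Leaving it out also took the 1.5 h difference from 0.38 to 1.02 and the siRNA difference from 0.35 to 0.78, neither of which passed. The siRNA difference went from -0.50 at 0 h to 0.35 at 1.5 h and 1.21 at 24 h, and the term for that change at 24 h was 1.28 ± 0.52 (limma adjusted p = 0.999). Another PDGFB probe set had 3.4, 17.8 and 31.5 in siControl and 8.8, 12.9 and 83.8 in siHNF4a, again highest at 24 h in siHNF4a.

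PDGFA had 52.5, 51.3 and 72.6 in siControl and 36.9, 55.7 and 66.9 in siHNF4a. Both 24 h arrays lay above the rest, but by little, and no comparison of PDGFA passed. The 24 h difference was 0.66 ± 0.27 (limma adjusted p = 0.12) and the siRNA difference -0.17 ± 0.22 (limma adjusted p = 0.729), or 0.00 without the siControl 0 h array. The relative PDGFC, which is processed by proteases outside the cell, rose by 1.04 ± 0.15 at 24 h, with signals of 468.6 at 0 h and 818.1 at 24 h in siControl, and 507.5 and 1226 in siHNF4a. The receptor PDGFRB had signals of 12.7 to 51.4 and did not pass, and PDGFRA did not enter the tests, with signals of 1.4 to 19.1.

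VEGFA, the main endothelial growth factor, was the only one of the 10 whose 24 h signals did not both exceed the earlier ones. It had 387.5, 441.4 and 423.4 in siControl and 374.7, 379.3 and 599.3 in siHNF4a. The siHNF4a 24 h array was the highest, and the other 5 lay within 374.7 and 441.4. The 24 h difference was 0.13 in siControl and 0.68 in siHNF4a, with a fitted mean of 0.40 ± 0.17 that did not pass (limma adjusted p = 0.145). The siRNA difference was 0.50 at 24 h and -0.22 at 1.5 h, and its mean of 0.08 ± 0.14 did not pass. The 3 other VEGFA probe sets had 24 h differences between 0.00 and 0.04 (siControl) and between 0.02 and 0.29 (siHNF4a), smaller than in the probe set used. Of the VEGF receptors, KDR lay below the floor on every array and FLT1 had 9.9 to 30.2.

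ANGPTL4 lay close to the floor on all 6 arrays. It had 8.7, 8.9 and 21.9 in siControl and 15.5, 3.3 and 30.4 in siHNF4a. Both 24 h arrays were above the floor, as was the siHNF4a 0 h array, and the remaining 3 were below it. The fitted 24 h difference of 0.87 ± 0.35 did not pass (limma adjusted p = 0.119). The fitted step from 1.5 to 24 h, 1.00 ± 0.35, did not pass either (limma adjusted p = 0.0777), though it did under a lower floor, the 40th percentile of signals (1.59), and with log2(signal + floor) (1.05). The other ANGPTL4 probe set had 1.0, 1.9 and 11.4 in siControl and 1.0, 1.1 and 17.3 in siHNF4a. It exceeded the floor only on the siHNF4a 24 h array. Among other PPAR targets, a class to which ANGPTL4 belongs, 2 of 8 tested rose at 24 h and 1 fell, against 7.22% and 7.82% of all genes. They were PLIN2, which coats lipid droplets (1.02 ± 0.12), ACSL1, which activates fatty acids (0.68 ± 0.14), and FABP1 (-0.97 ± 0.26). With siHNF4a PLIN2 was higher (0.93 ± 0.09) and FABP1 lower (-1.71 ± 0.21), against 3.9% and 4.16% of all genes. FABP1 had 1049.0 at 0 h and 813.8 at 24 h in siControl, and 386.4 and 129.8 in siHNF4a. Lipoprotein lipase, the enzyme that ANGPTL4 blocks, is encoded by LPL, which lay below the floor on every array.

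**Figure D2:**
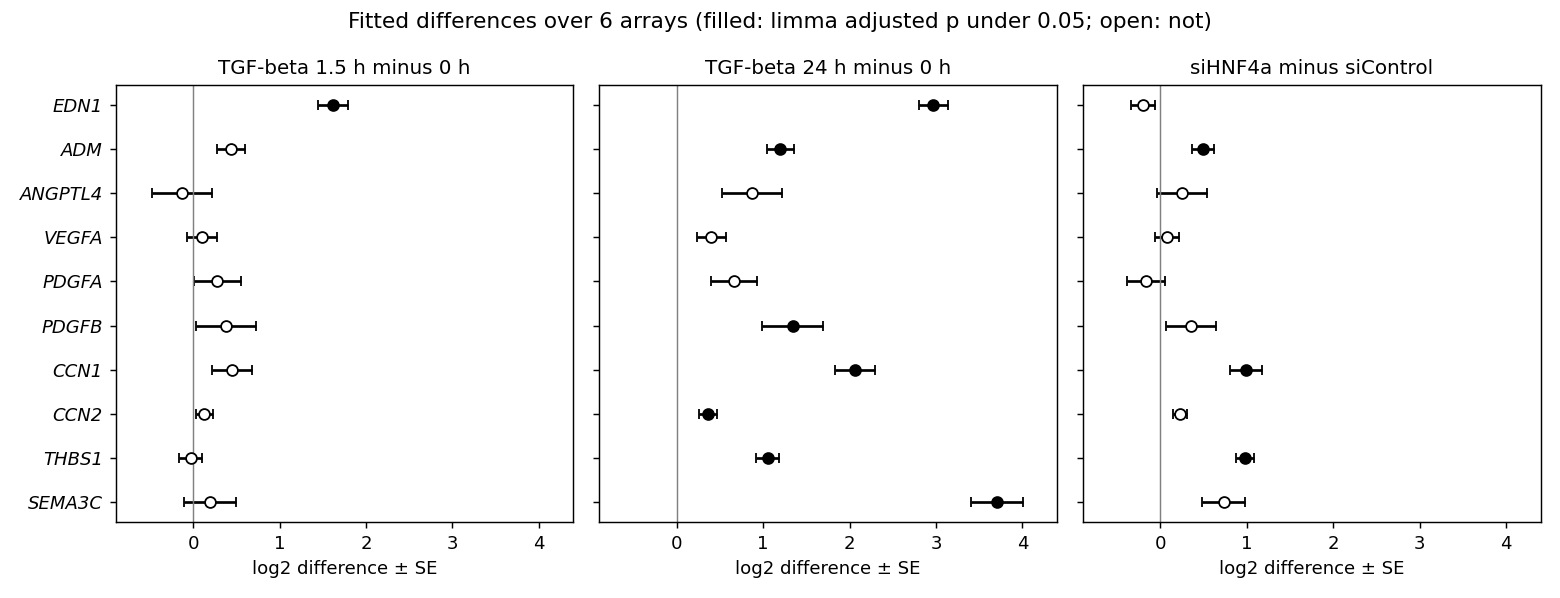
Fitted log2 differences (x axis) with SE for each gene, in the TGF-beta comparisons at 1.5 and 24 h and in the siRNA comparison; filled points passed limma's test at an adjusted p of 0.05 over all 11921 genes. EDN1 passed at 1.5 h, 7 genes at 24 h, and ADM, CCN1 and THBS1 in the siRNA comparison.

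Counted over the 10 genes, 7 rose at 24 h, none fell and 3 did not pass (ANGPTL4, VEGFA and PDGFA), where 7.22% of all genes tested rose and 7.82% fell. The median difference of the 10 was 1.13, and that of all genes tested -0.03. From 1.5 to 24 h 5 rose and none fell, against 6.4% and 7.01% of all genes, and the 5 were EDN1, ADM, CCN1, THBS1 and SEMA3C. With the siRNA 3 were higher and none lower, against 3.9% and 4.16% of all genes, with medians of 0.30 and -0.04. The comparisons at 1.5 and 24 h share the 0 h arrays and are not independent. Without the filter on dim genes no member passed limma's test in any of them (1 gene of 19775 did at 24 h, and 2770 had an unadjusted p under 0.05). Without the intensity trend of limma's variance model, or with the mean of probe sets, no member passed in the siRNA comparison. Both settings also lowered the siRNA calls over all genes, from 465 higher and 496 lower to 16 and 29 without the trend and to 104 and 123 with the mean.

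Between single arrays, with no test, 4 of the 10 were at least 2-fold higher at 24 h than at 0 h in siControl (3.11% of all genes) and 6 in siHNF4a (4.5%). At 24 h CCN1, PDGFB and SEMA3C were at least 2-fold higher in siHNF4a than in siControl (2.23%), while at 0 h THBS1 was (1.47%). Both 24 h signals lay above all 4 earlier ones in 9 of the 10 genes and in 15.7% of all genes. The siHNF4a 24 h array was the highest of the 6 in 8 genes, all but EDN1 and PDGFA, against 22.1% of all genes. ANGPTL4 is in both counts, and since it entered the tests mainly through its 24 h signals, its high 24 h rank was largely set by the filter. The siHNF4a array was the higher at each of the 3 times in ADM, CCN1, CCN2, THBS1 and SEMA3C, against 17.5%. With 1 array per condition no spread was measured within a condition, so neighbouring signals in these orders cannot be called different.

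**Figure D3:**
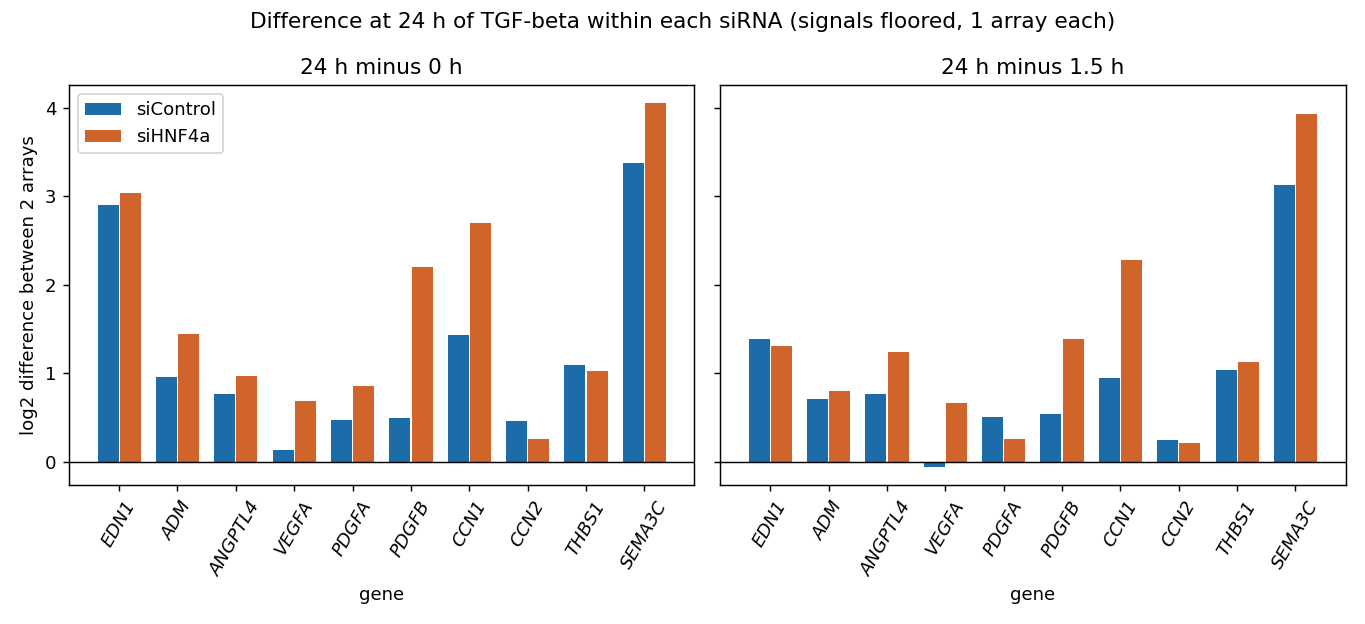
Log2 difference of the 24 h array from the 0 h array (left) and from the 1.5 h array (right) for each gene, with 1 bar per siRNA and no error since each bar rests on 2 arrays. The siControl bars of ANGPTL4 and SEMA3C on the left and both ANGPTL4 bars on the right start from a floored signal and are lower bounds. CCN1 and PDGFB have the widest gaps between the arms in both panels (1.27 and 1.71 left, 1.34 and 0.85 right), and EDN1 and THBS1 have gaps of 0.14 or less.

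At 24 h against 0 h the arms could be compared in 8 genes, since ANGPTL4 and SEMA3C lay below the floor on the siControl 0 h array. The log2 difference in siHNF4a minus that in siControl was 1.71 for PDGFB, 1.27 for CCN1 and 0.55 for VEGFA. It was 0.48 for ADM, 0.39 for PDGFA and 0.14 for EDN1, and below 0 in THBS1 (-0.07) and CCN2 (-0.21). Against the 1.5 h arrays it was 1.34 for CCN1, 0.85 for PDGFB, 0.81 for SEMA3C and 0.72 for VEGFA, with ADM at 0.09 and PDGFA at -0.24. None of the 10 passed on the fitted term for this change, as 0% of all genes did.

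The members have 28 probe sets in all, and 16 of the 18 not used lay above the floor on at least 1 array. Of those 16, 12 had the same direction as the probe set used for 24 h against 0 h in siControl and 15 in siHNF4a. The second EDN1 probe set had 38.9 at 0 h and 319.5 at 24 h in siControl, and 34.6 and 304.2 in siHNF4a, log2 differences of 3.04 and 3.14. The dim probe set of the gene lay below the floor at 0 h in both arms (7.2 and 10.1), so its values of 0.63 and 0.47 are lower bounds.

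**Figure D4:**
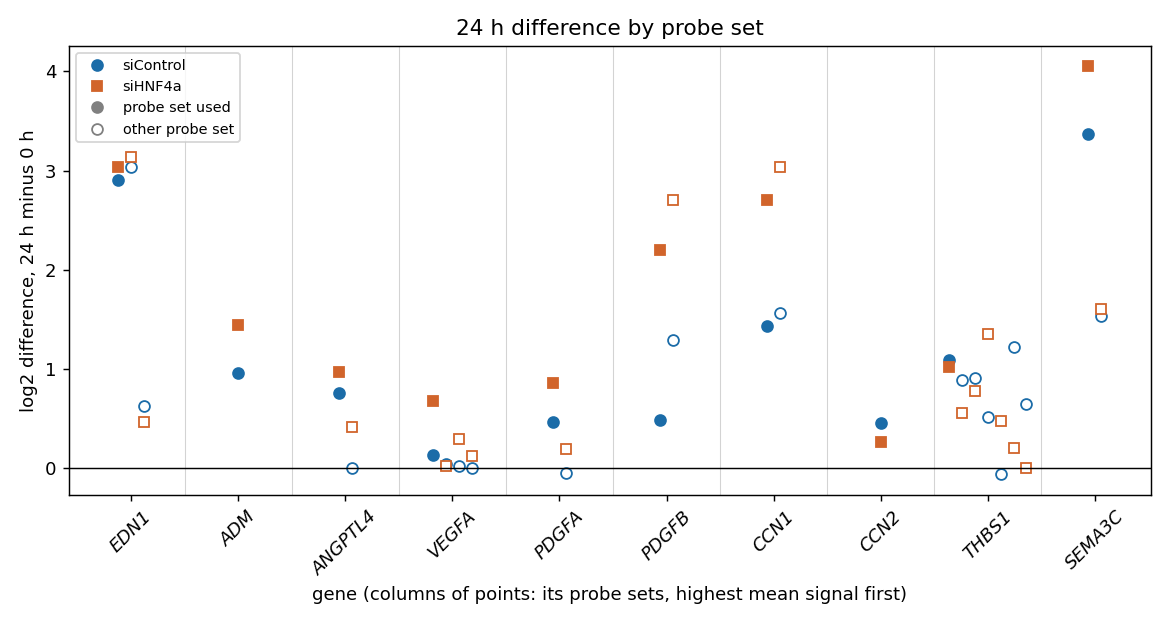
Log2 difference of 24 h from 0 h for every probe set of the 10 genes that exceeded the floor on at least 1 array, filled for the probe set used and open for the others, with siControl as circles and siHNF4a as squares. The second probe sets of EDN1 and CCN1 lie close to the ones used, whereas the dim probe set of EDN1 lies far lower (0.63 and 0.47). The probe sets of THBS1 and SEMA3C also differ among themselves.

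The wider families of these signals were examined as lists. Of 76 relatives, receptors and processing enzymes listed, 71 had a probe set of their own and 39 were tested. Over the whole series 11921 of 19775 genes were tested. At 24 h 9 of the 39 rose and none fell, against 7.22% and 7.82% of all genes. With the siRNA 2 were higher and 1 lower, against 3.9% and 4.16%. ECE1, which cuts endothelin from its precursor, rose by 0.98 ± 0.24, and PAM, which amidates adrenomedullin and other peptides, rose by 0.72 ± 0.14. SPARC, a collagen-binding matricellular protein, rose by 0.84 ± 0.17 at 24 h and was lower with siHNF4a (-0.46 ± 0.13), the opposite order to THBS1, and the cartilage thrombospondin COMP rose by 1.29 ± 0.35. The endothelin receptor EDNRB (6.4 to 15.4) and the adrenomedullin receptor CALCRL (2.9 to 8.1) did not enter the tests, and CD36 and CD47, receptors of thrombospondin-1, had 24 h differences of 0.05 ± 0.24 and -0.01 ± 0.26.

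ADM, VEGFA and ANGPTL4 are known hypoxia targets. Of 16 other such targets tested, 9 rose at 24 h and none fell, against 7.22% and 7.82% of all genes, with a median difference of 0.58. NDRG1, a stress-induced cytosolic protein (1.54 ± 0.19), PFKFB3, a glycolysis regulator (1.04 ± 0.24), and the glucose transporter SLC2A3 (1.04 ± 0.11) had the largest differences. HK2, a hexokinase, was higher with siHNF4a (0.93 ± 0.11), and LOX, which crosslinks collagen, was lower (-0.77 ± 0.14). Of 11 TGF-beta and Smad targets tested 9 rose at 24 h and 4 at 1.5 h, against 7.22% and 0.0839% of all genes. They included PMEPA1 (3.29 ± 0.36), COL1A1 (2.62 ± 0.21) and CDKN2B (2.57 ± 0.25) at 24 h, and JUNB (2.93 ± 0.26) and BHLHE40 (1.64 ± 0.19), both transcription factors, at 1.5 h. PMEPA1 and CDKN2B were also higher with siHNF4a (1.02 ± 0.29 and 1.10 ± 0.20). PMEPA1 lay below the floor in siControl at 0 and 1.5 h (2.6 and 7.8) and entered the tests mainly through its 24 h signals. Both of its differences therefore depend on the floor.

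Markers of other cells were examined beside the 24 h results. Of 10 endothelial markers 4 were tested, and 3 rose at 24 h, against 7.22% of all genes. They were ROBO4 (1.65 ± 0.34), ESAM (1.43 ± 0.23) and PECAM1 (1.01 ± 0.27). ROBO4 had signals of 6.2 to 17.7 on the 4 earlier arrays and entered the tests mainly through its 24 h signals. The summed signal of that list was 146.6 to 215.7 on the 4 earlier arrays and 342.2 and 397.7 at 24 h. CDH5, VWF, KDR and EMCN lay below the floor on every array. PECAM1 (47.0 to 127.2) and ESAM (49.7 to 186.2) lay above it on all 6, TIE1 on 2, and ERG and CLDN5 on 1 each. The part of endothelial markers in the 24 h results was not tested. Fibroblast and stellate markers summed to 386.1 to 538.4 with none of the 4 tested passing, where at 24 h 7.22% of all genes rose and 7.82% fell. ACTA2 (271.0 to 416.2), which made up most of that sum, and RGS5 (13.5 to 21.4) lay above the floor on all 6 arrays, and COL3A1 lay below it throughout. Blood and platelet markers summed to 102.9 to 240.7, with PTPRC and PPBP below the floor throughout. Of 5 tested CD14 alone passed, higher at 24 h (1.39 ± 0.35) and lower with siHNF4a (-1.18 ± 0.29), against 7.22% and 4.16% of all genes. Among hepatocyte markers SERPINA1 rose (0.34 ± 0.09) and TTR fell (-0.54 ± 0.14) at 24 h, TTR was also lower with siHNF4a (-0.52 ± 0.12), and the list summed to 68237 to 76314.

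Genes with the most similar course over the 6 arrays were found by Pearson's r of floored log2 values, as a description with no test. Each gene was set against 3153 others that also varied by at least 2-fold, and all values come from the same 6 arrays. EDN1 was closest to ZNF566 (0.986), TCP11L2 (0.982) and the Smad co-repressor gene SKIL (0.981), of which SKIL had 464.9, 695.9 and 928.5 in siControl and 487.6, 737.9 and 1005 in siHNF4a. Each later SKIL array was the higher in both arms, as for EDN1, over a smaller range (1.11 against 3.22). CCN1 was closest to PTCHD4 (1.00), the stress cytokine GDF15 (0.995) and RABAC1 (0.993), and THBS1 to DAAM1 (0.999), RAP2B (0.996) and the histone demethylase KDM3A (0.995), which is also in the hypoxia list. GDF15 had 1734.5, 2329.7 and 3287.5 in siControl and 2552.4, 2912.2 and 7350.2 in siHNF4a, and its siHNF4a 24 h array was the highest, as in CCN1. ADM was closest to ERRFI1 (0.985), PDGFB to the lysyl oxidase relative LOXL3 (0.986), SEMA3C to GDPD1 (0.998), and ANGPTL4 to PBXIP1 (0.995). VEGFA, PDGFA and CCN2 varied by less than 2-fold over the arrays and were left out.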

How the data were processed

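Biotin-labelled RNA of HepG2 cells went onto Affymetrix arrays, 1 for each of 6 conditions. The deposited values are signal intensities on a linear scale, and the submitters' processing notes name GCOS and MAS5 (version 5.0); on every array their mean, trimmed by 2% at each end, was 100. Of 54675 probe sets, 41097 were annotated to 1 gene symbol, 1801 to several and 11777 to none, and only the first were named. Per gene the probe set with the highest mean signal was used, giving 19775 genes, of which 11921 had a mean signal over the 6 arrays above the floor. Signals under 12.9, the median over all arrays (12.4 to 13.3 per array), were set to that value before log2.

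An additive model with siRNA and time as terms was fitted to all tested genes with limma 3.58.1 in R 4.3.3 (eBayes with an intensity trend, 2 residual and 12.65 prior degrees of freedom), and p-values were adjusted over all of them by Benjamini and Hochberg at 0.05. Another fit added the siRNA difference at 24 h against the earlier times, with 1 residual degree of freedom. The spread in these fits is the departure of 6 unreplicated arrays from additivity, so a p-value says nothing of separate cultures, and the number of arrays limits the precision. The labels do not say whether arrays of 1 siRNA share a transfection. On simulated data with 200 genes changed 2-fold, 74% were recovered at 24 h, 66% at 1.5 h and 83.5% for the siRNA. False calls were 9, 4 and 8 in that order. With 200 genes changed 4-fold, 100%, 99.5% and 100% were recovered in the same order. False calls were then 27, 15 and 19, a larger share of all calls than the threshold of 0.05. The simulated noise was independent, the changes additive and no floor was applied, unlike on these arrays, so recovery here may be lower. Promoter windows and their build come from RefSeq (GRCh38.p14).

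The 10 genes and the lists were chosen with earlier results of these data known, so counts over them are no independent evidence. Named beside them are, per list, up to 3 called genes with the largest 24 h difference, up to 2 with the largest siRNA difference and up to 2 with the largest 1.5 h difference, receptors of the 10, and the 3 genes of most similar course. Marker genes of other cells were checked as lists. Alternatives changed the scaling, floor, pseudocount, probe set rule, filter, variance trend and the arrays used.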

Additional observations from a re-analysis of the deposited data

Results flagged for a closer look

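Several differences had opposite signs in the 2 siRNAs or at 2 times. Each gap rests on single arrays and was not tested as such. The nearest test, the fitted siRNA difference at 24 h against the mean of the earlier times, did not pass for VEGFA (0.63 ± 0.27), PDGFB (1.28 ± 0.52), PDGFA (0.08 ± 0.47) or THBS1 (0.01 ± 0.23), each with a limma adjusted p of 0.999.

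VEGFA from 1.5 to 24 h was -0.06 in siControl and 0.66 in siHNF4a, a gap of 0.72 on the log2 scale. The siRNA difference of VEGFA began at -0.05 (0 h) and -0.22 (1.5 h) and reached 0.50 (24 h), so the 24 h value exceeded the others by 0.55 and 0.72.

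PDGFB at 1.5 h against 0 h was -0.05 in siControl and 0.80 in siHNF4a, a gap of 0.86. The siRNA difference of PDGFB began at -0.50 (0 h), and the later values of 0.35 (1.5 h) and 1.21 (24 h) exceeded it by 0.86 and 1.71. PDGFA at 1.5 h was -0.03 and 0.59, a gap of 0.63, and its siRNA difference went from -0.51 at 0 h to 0.12 at 1.5 h (0.63 apart) and -0.12 at 24 h (-0.24 apart). THBS1 at 1.5 h was 0.04 and -0.11, a gap of -0.15.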

How the results depend on the processing

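Of 550 alternative fitted values for single genes, 497 kept their direction and side of the threshold, 39 no longer passed, 6 came to pass and 8 turned sign; the causes were not tested. Of the 10 genes, the 24 h count of 7 became 4 of 5 with _x_at and _s_at probe sets excluded and 0 without the filter on dim genes. The count of 5 from 1.5 to 24 h became 3 of 5, 0, and 3 without the intensity trend. The siRNA count of 3 became 0 with the mean of probe sets, without the filter or without the trend, and 1 without the 24 h pair. The 1.5 h count of 1 became 0 in those first 3 settings and 2 without the siControl 0 h array. The count of 0 for the changed siRNA effect became 1 with log2(signal + floor). At 2-fold between single arrays, leaving out those probe sets changed the 24 h counts against 0 h to 2 (siControl) and 3 (siHNF4a), those against 1.5 h to 1 and 2, and the siRNA counts to 0 at 0 h and 1 at 1.5 h. That setting leaves no probe set for ANGPTL4, VEGFA, PDGFA and SEMA3C. For PDGFB it leaves only probe sets below the floor on every array, so these counts cover fewer genes. The mean of probe sets gave siRNA counts of 0 at 0 h and 1 at 24 h. Signs turned for the siRNA difference of VEGFA (-0.13) and PDGFB (-0.07) without the 24 h pair, and for THBS1 at 1.5 h with the mean of probe sets (0.06) or without those probe sets (0.21). They also turned for the changed siRNA effect in THBS1 with quantile (-0.05) or median scaling (-0.01) or the mean of probe sets (-0.25), and in EDN1 with the floor at the 75th percentile (-0.08). In single arrays without those probe sets THBS1 was -0.06 (siControl, 24 against 0 h) and -0.25 (siHNF4a, 24 against 1.5 h).

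Over all genes, median scaling moved the siRNA calls from 465 higher and 496 lower to 558 and 385. The 24 h calls of 861 and 932 became 382 and 424 with the mean of probe sets and 249 and 208 without the trend, and the 1.5 h calls of 10 and 2 became 16 and 10 without the siControl 0 h array. The fits already match the siRNAs by time, and no replicate block could be added since no group had a second array.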
